A study of Mus musculus with 6 samples.

Results

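The genes described here encode proteins of the cytosolic ribosome. They were found by name: a gene was taken when the array annotation gave a probe set that single symbol and the symbol began with Rpl or Rps and a digit, or was Rplp0, Rplp1 or Rplp2, leaving out S6 kinases and pseudogenes. This gave 49 genes, read by 104 probe sets, of 18193 genes with a probe set of a single symbol. They fell into 20 core proteins of the small subunit, 20 of the large subunit, 2 of the P stalk (Rplp0 and Rplp2), 6 paralogs (Rpl22l1, Rpl39l, Rpl3l, Rpl7l1, Rps27l and Rps4l) and Rps19bp1. Rps19bp1 met the naming rule, but its product binds RPS19 and is not a ribosomal subunit. The naming rule uses no measured value; where a gene had several probe sets, the one with the highest mean intensity over all arrays was used. A further 110 probe sets carried several symbols with at least 1 ribosomal protein gene among them and named no gene here. Some ribosomal protein genes, Rpl3, Rpl5, Rpl10 and Rplp1 among them, are not among the 49, so that the ribosome was read only in part.

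The 6 arrays measured total RNA from mouse haematopoietic stem cells, sorted from bone marrow of the long bones as GFP-positive cells that lacked lineage markers and carried c-Kit and Sca-1. In 2 arrays the cells had received the empty GFP vector (vector), in 2 they expressed BCR/ABL, the fusion kinase of chronic myeloid leukaemia, and came from untreated leukaemic mice (BCR/ABL), and in 2 they expressed BCR/ABL and came from leukaemic mice given imatinib, an inhibitor of the ABL kinase. The labels give no strain, age, imatinib dose or duration, and do not tell if each array stands for its own mouse or for a pool, so that p-values cover only the spread between arrays, which may be technical. GFP marks transduced cells in all 3 groups, and sorted cells of a leukaemic mouse may differ from vector cells in the types they hold. The study asked which stem cell genes are under the control of BCR/ABL.

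Ribosomes are built from ribosomal RNA and a nearly equal number of copies of each ribosomal protein, joined in a small subunit that decodes the message and a large subunit that forms peptide bonds. Messages of ribosomal proteins begin with a C followed by a run of pyrimidines, the 5′ terminal oligopyrimidine (TOP) motif, through which mTORC1 and LARP1 control their translation. That control acts on how well the messages are translated, which an array of RNA levels does not read. In blood formation, loss of 1 copy of several of these genes causes human Diamond-Blackfan anaemia, and free RPL5 and RPL11 bind MDM2 and stabilize p53.

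Start-site windows are shown for genes whose values are discussed below, since the TOP motif is known for this family and was not used by the naming rule. Each sequence is 30 bases of RefSeq's GRCm38.p6, 10 bases before an annotated start and 20 from the start on, written 5′ to 3′ on the gene's strand. Capitals mark the run of at least 5 pyrimidines nearest to the start. Rps6, Rpl35, Rps18 and Rps27 were picked as core genes with a run over the annotated start, Rpl11 and Rpl41 as core genes without one. Rps27l, Rpl22l1 and Rpl7l1 are paralogs by name, and Rps19bp1 is neither a core gene nor a paralog.
Rps6 (chr4:86857348-86857377, minus strand): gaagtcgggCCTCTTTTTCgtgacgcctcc
Rpl35 (chr2:39005112-39005141, minus strand): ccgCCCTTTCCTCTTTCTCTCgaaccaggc
Rps18 (chr17:33955646-33955675, minus strand): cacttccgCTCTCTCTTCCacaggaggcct
Rps27 (chr3:90213629-90213658, minus strand): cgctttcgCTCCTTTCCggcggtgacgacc
Rpl11 (chr4:136053374-136053403, minus strand): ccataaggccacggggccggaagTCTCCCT
Rpl41 (chr10:128549149-128549178, minus strand): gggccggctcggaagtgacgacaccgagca
Rps27l (chr9:66946076-66946105, plus strand): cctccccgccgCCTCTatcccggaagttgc
Rpl22l1 (chr3:28805498-28805527, plus strand): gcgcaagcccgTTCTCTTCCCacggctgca
Rpl7l1 (chr17:46782637-46782666, minus strand): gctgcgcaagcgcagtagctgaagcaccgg
Rps19bp1 (chr15:80264287-80264316, minus strand): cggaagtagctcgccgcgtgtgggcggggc

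Of the 43 starts of core genes, 13 had such a run over the annotated start, 16 had one elsewhere in the window and 14 had none. The windows shown for Rps27l and Rpl22l1 have one just after the start, and those of Rpl7l1 and Rps19bp1 have none. Rps27l has another annotated start, not shown, whose window has no such run. The annotated starts may lie some bases from those used in these cells, which was not tested. The promoter table held 51 starts of 43 of the 49 genes and 32851 starts in all. A C at the annotated start followed by at least 4 pyrimidines was found at 8 of 51 starts (15.7%), against 2.51% of all starts. All 8 were among the starts of core genes (18.6%), and the 7 starts of paralogs had none. A C with at least 5 pyrimidines after it lay anywhere in the 30-base window at 26 of 51 starts (51.0%), against 22.0% of all starts. In windows of 300 bases, from 250 before to 50 after the start, the ETS core CCGGAAG was present on either strand at 20 of 51 starts (39.2%), against 8.86% of all. The YY1 core ATGGCGG, on either strand, was present at 7 of 51 (13.7%) against 4.05%. The TATA box TATAAA was at 6 of 51 (11.8%) against 13.6%, and the E-box CACGTG at 5 of 51 (9.8%) against 7.15%. These are matches of letters and show no binding.

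The arrays were first checked against their labels. Of 7 listed stem and progenitor markers 5 were measured; Ly6a, which encodes Sca-1, was not analysed here. Kit had log2 levels of 10.71 and 11.06 in vector cells, 10.37 and 10.13 with BCR/ABL and 11.38 and 11.39 with imatinib, and Flt3 10.92 and 11.12, 10.51 and 9.37, and 11.01 and 11.57. Gata2 had 12.25 and 12.19, 12.91 and 12.71, and 12.88 and 12.84, Cd34 ranged from 12.10 to 12.52 and Meis1 from 7.61 to 9.14. Kit and Flt3 were thus lowest with BCR/ABL and Gata2 lowest in vector cells. None of the 5 had a limma adjusted p below 0.05. The smallest was 0.126 for BCR/ABL against vector, 0.108 for imatinib against BCR/ABL and 0.116 for imatinib against vector. Markers of some other cell types differed between the groups, most clearly those of B lineage and of mast cells and basophils, while erythroid sums overlapped. The summed intensity of 6 of 7 listed B lineage markers was 20921.5 and 4431.4 in the vector arrays, 1242.9 and 2298.8 in the BCR/ABL arrays and 638.7 and 1720.5 in the imatinib arrays. That of 7 of 7 mast cell and basophil markers was 6334.5 to 10334.2, 31623.5 to 32279.0 and 42770.0 to 50117.1 in the same order. Granulocyte markers (6 of 6) summed to 25047.8 to 41438.8 over all arrays. Among them Ltf, Camp and Ngp had log2 levels of 7.29, 9.53 and 9.33 in vector replicate 2, against 11.71 to 12.93 on the other arrays, so that this array stood apart. Erythroid markers (4 of 6) summed to 2268.0 to 6735.5, with Hba-a1 at the floor of the scale (4.03 to 4.12), and T cell markers (4 of 5) to 653.5 in vector replicate 1 and 35.2 to 83.4 elsewhere. The 3′ to 5′ intensity ratio of the beta-actin control was 1.81 and 1.62 in the vector arrays, 1.48 and 1.30 in the BCR/ABL arrays and 1.74 and 1.55 in the imatinib arrays. The part of these differences in the values of the ribosomal protein genes was not tested, and in sorted bulk samples fewer cells of a type and less RNA per cell cannot be told apart.

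Ribosomal protein messages were among the brightest signals on every array. Probe sets of 33 of the 49 genes lay in the brightest 1%, which held 359 probe sets with a mean intensity of at least 7696.6. Together with the probe sets of several symbols, ribosomal protein sequences made up 130 of those 359 (36.2%). The highest ribosomal protein intensity was 84.1% to 91.4% of the highest intensity on the same array. The table carries no saturation flags, so that a scanner or hybridization ceiling could be looked for only through the spread of values. All ranges here were taken after quantile normalization, which gives every array the same distribution and so narrows the spread at its top. The 33 genes with a mean above 13 on the log2 scale (a level chosen after the values were seen) had a median range over the 6 arrays of 0.093, with ranges from 0.04 to 0.239. The median level of these 33 genes lay between 13.46 and 13.60 over the arrays in the deposited scaling, and between 13.53 and 13.55 after normalization. The 115 other genes above 13 had a median range of 0.203, and genes at or below 13 ranged more widely: 0.60 for 8 ribosomal protein genes between 10 and 13 against 0.527 for 4724 other genes. After normalization, narrow ranges thus went with brightness, and for bright ribosomal protein genes they were narrower than for other bright genes. The parts of saturation and of the normalization in this were not tested. Brightness depends on the probes, and the order of the levels is not an order of transcript abundance.

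**Figure D1:**
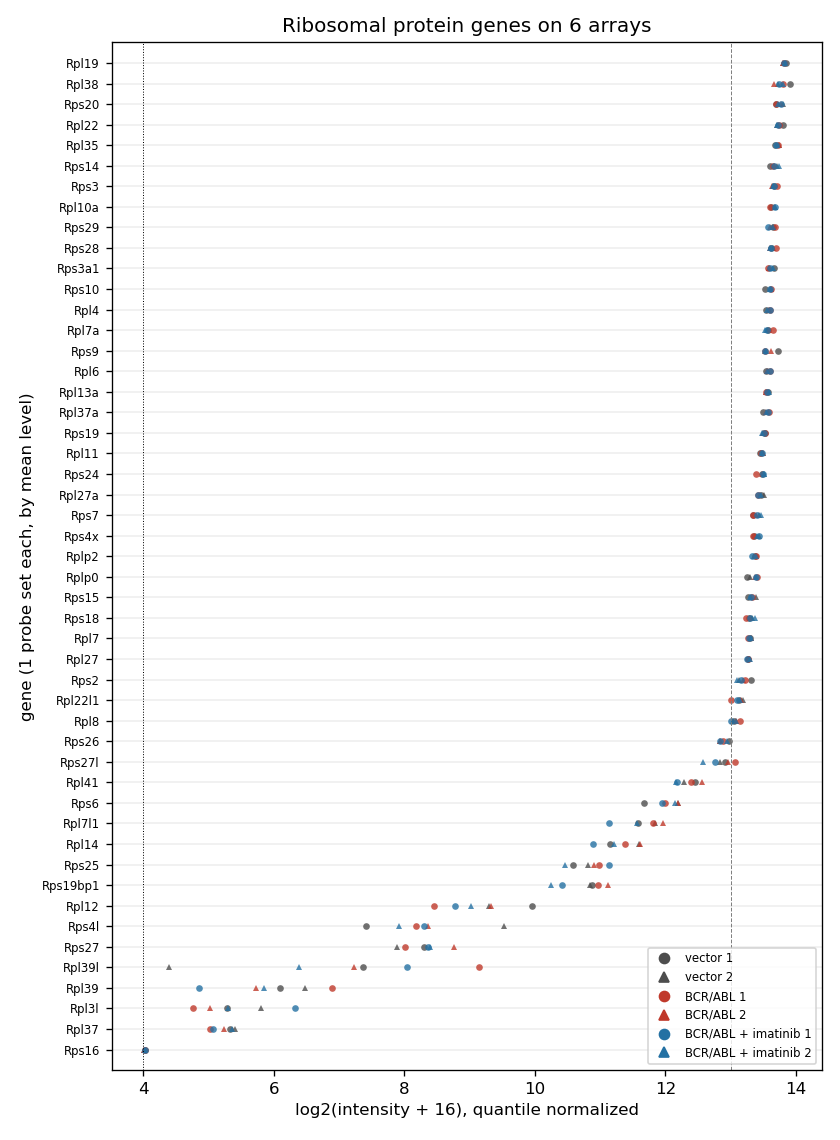
Level of each of the 49 genes on each of the 6 arrays, as log2(intensity + 16) after quantile normalization, with genes ordered by their mean level and groups by colour. Most genes lie in a narrow band above 13 with overlapping points. Dim probe sets spread more widely, except Rps16, which stays at the floor.

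Not all probe sets reported a ribosomal protein message at such a level. Rps16, a core protein of the small subunit, was read by a single-symbol probe set with an intensity of 0.131 to 0.311 on the 6 arrays, at the floor of the scale. Rpl37 had a mean intensity of 22.4, Rpl39 of 52.2, Rps27 of 302 and Rpl12 of 577, although all 4 are core proteins. The paralogs Rpl3l, known from striated muscle, Rpl39l, known from testis, and Rps4l had mean intensities of 30.5, 194 and 331. Of the 49 probe sets used, 14 had the suffix for probes that can cross-hybridize with other sequences, 18 that for several transcripts of 1 gene and 2 that for transcripts of several genes; with the many processed pseudogenes of this family, single-gene values are uncertain.

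In BCR/ABL against vector cells, the measured changes of most ribosomal protein genes were near 0 after quantile normalization, which fixes the top of the distribution where most of their probe sets lie. None of the 49 passed the test (limma over all arrays, Benjamini-Hochberg adjusted p below 0.05), where 19 of 18193 genes (0.104%) and 22 of 35877 probe sets (0.0613%) did. None had an unadjusted p below 0.05 either, against 12.7% of all genes, and the smallest adjusted p was 0.506. Their median log2 change was 0.007, with 25 positive and 24 negative values, beside 0.014 for all genes, and their median absolute change was 0.043 beside 0.203. Much of that gap goes with brightness: above 13 it was 0.025 for 33 ribosomal protein and 0.067 for 115 other genes, and at or below 10 it was 0.26 for 8 and 0.23 for 13305. In the deposited scaling the median change was -0.093, beside -0.009 for all genes. The groups did not overlap for 8 genes with higher BCR/ABL values (16.3%, background 23.9%) and 4 with lower ones (8.16%, background 20.1%).

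Small-subunit genes had a median log2 change of -0.005 in this comparison, from -0.06 to 0.29. Rps19, the gene most often mutated in human Diamond-Blackfan anaemia, had log2 levels of 13.52 and 13.49 in vector cells, 13.53 and 13.50 in BCR/ABL cells and 13.51 and 13.49 in imatinib-treated cells. Its 3 groups overlapped and its log2 changes were 0.01, -0.02 and -0.01 for BCR/ABL against vector, imatinib against BCR/ABL and imatinib against vector. Rps14, whose loss of 1 copy marks a human myelodysplastic syndrome, had levels of 13.60 and 13.71, 13.65 and 13.66, and 13.67 and 13.74 in the 3 groups. The BCR/ABL values lay between those of the vector arrays, and the imatinib values lay just above the BCR/ABL values (log2 change 0.05, SE 0.06, adjusted p = 0.799). Rps6, the substrate of the S6 kinases downstream of mTORC1, had levels of 11.67 and 12.20 in vector cells, 11.997 and 12.19 in BCR/ABL cells and 11.95 and 12.15 in imatinib-treated cells. The vector replicates of Rps6 differed more than the group means did. A dim further probe set of Rps6 (mean intensity 76.8) gave 0.99, 0.89 and 1.88 in the 3 comparisons (adjusted p = 0.652, 0.665 and 0.352). By the probe sets used, the change furthest from 0 was that of Rps27 (0.29, adjusted p = 0.781), whose probe set was dim. Rps25, a small-subunit protein, had levels of 10.59 and 10.82 in vector cells, 10.98 and 10.90 with BCR/ABL and 11.13 and 10.46 with imatinib. Both BCR/ABL arrays of Rps25 lay above the vector arrays, by 0.24 in the mean (SE 0.23, adjusted p = 0.728), and the imatinib arrays lay on either side. Rps18, whose start-site window is shown above, ranged from 13.23 to 13.38 over the 6 arrays, with a change of -0.04 (adjusted p = 0.857). Its further bright probe sets gave 0.03 and -0.01, and its dim ones -0.55, -0.64 and -0.38 (adjusted p = 0.620, 0.624 and 0.775).

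Large-subunit genes had a median log2 change of 0.009, from -0.74 to 0.12. Rpl11, which with RPL5 binds MDM2, had levels of 13.44 and 13.50 in vector cells, 13.46 and 13.50 in BCR/ABL cells and 13.49 in both imatinib arrays. Its log2 change was 0.01 with a 95% interval of -0.12 to 0.14 in BCR/ABL against vector cells. Rpl8 had levels of 13.05 and 13.04 in vector cells and 13.15 and 13.09 with BCR/ABL, which did not overlap but differed by only 0.07 (adjusted p = 0.709). The value of -0.74 belonged to Rpl12, with levels of 9.96 and 9.30 in the vector arrays, 8.46 and 9.33 in the BCR/ABL arrays and 8.77 and 9.02 in imatinib-treated cells (SE 0.37, adjusted p = 0.510). One BCR/ABL array of Rpl12 lay above the lower vector array. Rpl35, with the longest pyrimidine run among the windows shown, lay between 13.69 and 13.75 on all arrays (log2 change 0.02, adjusted p = 0.905). Its further bright probe sets gave 0.01 to 0.11, and a dim probe set gave -0.76 (adjusted p = 0.507). Rpl27a had levels of 13.46 and 13.50 in vector cells and 13.42 and 13.45 with BCR/ABL, a log2 change of -0.05 that did not pass the test (adjusted p = 0.785).

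The P stalk is the arm of the large subunit that recruits elongation factors. Rplp0, its base, had levels of 13.25 and 13.29 in vector cells, 13.40 and 13.37 in BCR/ABL cells and 13.40 and 13.39 in imatinib-treated cells. Both BCR/ABL groups lay above the vector arrays, by 0.11 on the log2 scale without imatinib (SE 0.05, adjusted p = 0.506) and by 0.12 with it (SE 0.05, adjusted p = 0.402). These values depended on the scaling: in the deposited scaling they were 0.015 and 0.057, and with array medians 0.227 and -0.059. Among the core genes this was the smallest adjusted p of both comparisons with vector. Rplp2, which binds to Rplp0, had changes of 0.03 and -0.00.

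**Figure D2:**
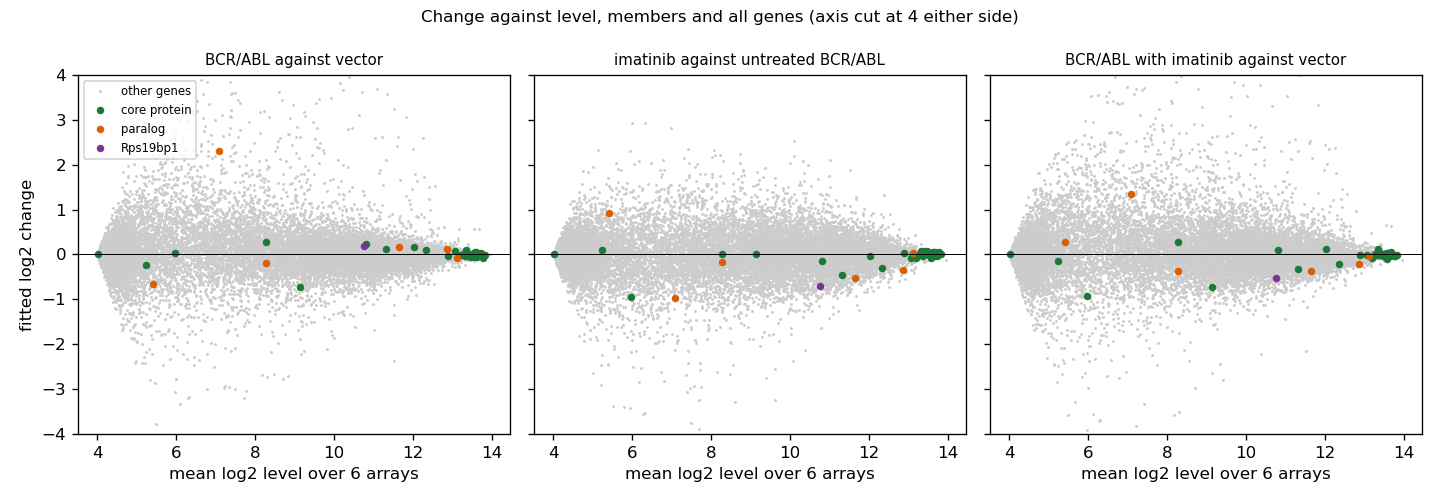
Log2 change against mean log2 level for every gene (grey) and the 49 ribosomal protein genes (coloured), in each of the 3 comparisons; the vertical axis ends at 4 in either direction. Bright ribosomal protein genes lie within 0.15 of 0, and the scatter widens to the left for all genes.

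In imatinib-treated against untreated BCR/ABL cells, 39 of 42 core genes had log2 changes within 0.15 of 0, the others being Rpl39, Rpl14 and Rpl41, and the lowest p-values of all 49 belonged to Rps19bp1, Rps27l, Rpl41 and Rpl7l1. None of the 49 passed the test, and among all genes the count was 0 of 18193 (0.0%) as well. By unadjusted p below 0.05 there were 4 of 49 ribosomal protein genes, against 17.0% of all genes. The median log2 change was -0.009, with 21 positive and 28 negative values, beside -0.006 for all genes, and the median absolute change was 0.039 beside 0.231, or 0.028 beside 0.086 among genes above 13. The groups did not overlap for 8 genes with higher values after imatinib (16.3%, background 24.8%) and 12 with lower values (24.5%, background 26.7%). By role, the median change was -0.008 for the 20 small-subunit genes, -0.003 for the 20 large-subunit genes and -0.252 for the 6 paralogs.

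Rps19bp1, also known as an activator of the deacetylase SIRT1, had levels of 10.88 and 10.84 in vector cells, 10.97 and 11.12 in BCR/ABL cells and 10.42 and 10.24 in imatinib-treated cells. The imatinib arrays lay below all 4 others, with a log2 change against BCR/ABL of -0.71 (SE 0.12, 95% interval -1.01 to -0.41, adjusted p = 0.120). Against vector the change was -0.53 (SE 0.12, adjusted p = 0.192). It had 1 single-symbol probe set, so that no other measured the same gene.

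Rps27l, a paralog of Rps27 that p53 induces, had levels of 12.92 and 12.84 in vector cells, 13.06 and 12.95 in BCR/ABL cells and 12.76 and 12.58 in imatinib-treated cells. The imatinib arrays were again the lowest, by 0.34 against BCR/ABL (log2 change -0.34, SE 0.09, 95% interval -0.55 to -0.13, adjusted p = 0.175). Its other 2 probe sets gave log2 changes of -0.33 (adjusted p = 0.217) and -0.25 (adjusted p = 0.250) for imatinib against BCR/ABL, without overlap of the groups. For BCR/ABL against vector the 3 probe sets gave 0.13, -0.01 and -0.00. The 3 probe sets thus gave the same direction with imatinib and no common one for BCR/ABL.

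Rpl7l1, a relative of Rpl7, had levels of 11.58 and 11.85 in vector cells, 11.82 and 11.96 in BCR/ABL cells and 11.14 and 11.57 in imatinib-treated cells. Imatinib arrays were lower than BCR/ABL arrays by all 3 of its probe sets, with log2 changes of -0.53 (SE 0.17, adjusted p = 0.244), -0.65 (adjusted p = 0.141) and -0.41 (adjusted p = 0.306). Without imatinib replicate 1 the first of these was -0.32. Rpl7 itself lay between 13.26 and 13.32 in all arrays by its brightest probe set. A further bright probe set of Rpl7 lay between 13.22 and 13.32, and a dimmer one between 10.32 and 11.36.

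Rpl41, the shortest of the ribosomal proteins, showed how far probe sets of 1 gene can part. Its brightest probe set had levels of 12.46 and 12.29 in the vector arrays, 12.39 and 12.56 in the BCR/ABL arrays and 12.17 and 12.16 in imatinib-treated cells, with a log2 change of -0.31 for imatinib against BCR/ABL (adjusted p = 0.228). The other 3 gave 0.19, 0.19 and -1.02 (adjusted p = 0.798, 0.802 and 0.108). For BCR/ABL against vector they gave -0.68, -0.59 and 0.68 (adjusted p = 0.391, 0.446 and 0.186), beside 0.10 (adjusted p = 0.718) by the brightest. The probe sets of Rpl41 disagreed in direction, and no single change can be given for this gene.

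**Figure D3:**
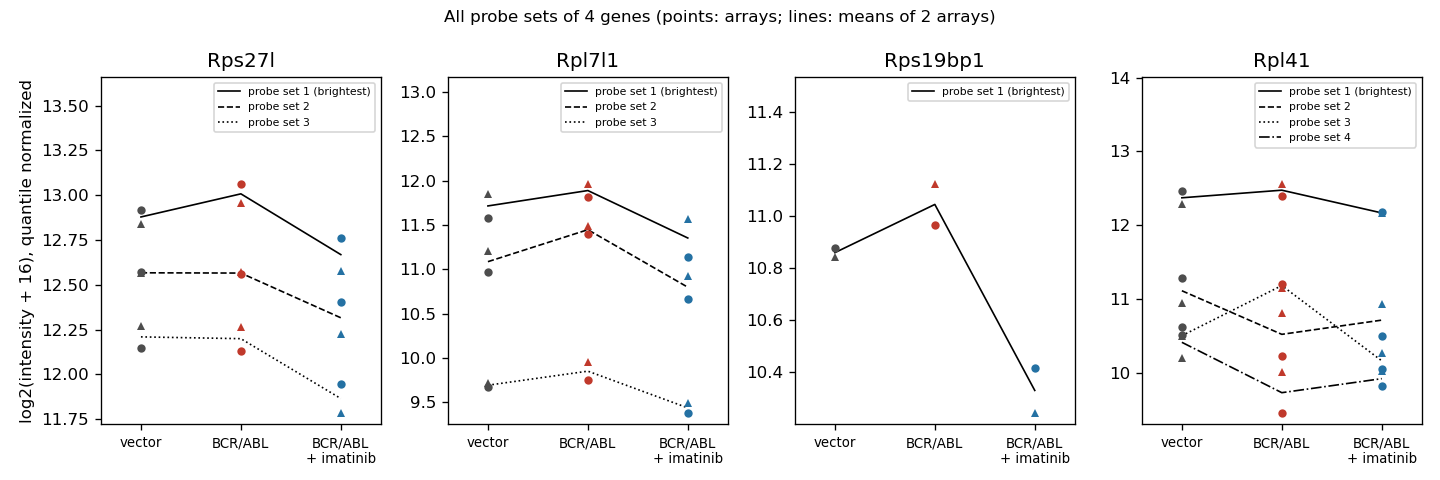
Log2(intensity + 16) after quantile normalization for every single-symbol probe set of Rps27l, Rpl7l1, Rps19bp1 and Rpl41, with circles for replicate 1, triangles for replicate 2 and lines through the means of 2 arrays. The lines of Rps27l and Rpl7l1 run in parallel down to the imatinib group, and those of Rpl41 cross.

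The other genes with groups apart in this comparison had smaller or less certain values. Rpl14, a large-subunit protein, had levels of 11.39 and 11.61 in BCR/ABL and 10.89 and 11.21 in imatinib-treated cells (log2 change -0.45, SE 0.19, adjusted p = 0.360), and 11.16 and 11.60 in vector cells. Without imatinib replicate 1 its change was -0.29. Rps4x, Rps24, Rps7 and Rps3a1, all of the small subunit, had changes of 0.07, 0.07, 0.06 and 0.05, with adjusted p of at least 0.652. Rpl7a had a change of -0.08 (adjusted p = 0.560).

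In imatinib-treated BCR/ABL against vector cells, which share arrays with the other comparisons, none of the 49 genes passed the test, where 15 of 18193 genes (0.0824%) and 16 of 35877 probe sets (0.0446%) did. By unadjusted p below 0.05 there was 1 of 49, Rps19bp1, against 16.7% of all genes. The median log2 change was -0.007, with 19 positive and 30 negative values, beside -0.001 for all genes, and the median absolute change was 0.036 beside 0.226, or 0.023 beside 0.078 among genes above 13. The groups did not overlap for 3 genes with higher values (6.12%, background 21.9%) and 7 with lower ones (14.3%, background 22.3%). By role, the median change was 0.003 for small-subunit genes, -0.011 for large-subunit genes and -0.126 for paralogs. The lower genes included Rps19bp1, Rps27l, Rpl7l1 and Rpl41, which were also the genes with the lowest p for imatinib against BCR/ABL; both comparisons use the same imatinib arrays.

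The bounds on a change were tight for the bright genes by the probe set used for each, after quantile normalization. All 33 genes above 13 had log2 changes between -0.09 and 0.12 in the 3 comparisons. Their single-gene 95% intervals reached at most from -0.28 to 0.24, or from -17.8% to 18.0% of the intensity, for BCR/ABL against vector. They reached from -0.27 to 0.24 for imatinib against BCR/ABL and from -0.29 to 0.25 for imatinib against vector. These bounds hold for the measured intensity of the probe sets used, after a normalization that gives all arrays the same distribution. Further probe sets of Rpl13a gave log2 changes of 0.03, -0.32 and -0.18 for imatinib against BCR/ABL (adjusted p = 0.927, 0.222 and 0.553). The probe set used gave 0.03. With the arrays set to equal medians instead, Rpl7a changed by -0.37 in that comparison, outside its interval of -0.21 to 0.05. The median of all genes was then -0.272.

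Paralogs varied more than core genes, and their probe sets were mostly dimmer. Rpl22l1, the paralog of Rpl22, was the exception, with levels of 13.13 and 13.19 in the vector arrays, 13.01 and 13.17 in the BCR/ABL arrays and 13.10 and 13.14 in imatinib-treated cells. Rpl22 itself lay between 13.71 and 13.80, and by the probe sets used no 2 groups of either gene separated. A dimmer probe set of Rpl22 had imatinib arrays above BCR/ABL arrays (log2 change 0.41, adjusted p = 0.736). A further probe set of Rpl22 had imatinib arrays below vector arrays (log2 change -0.02, adjusted p = 0.898). Rpl39l had intensities of 163 and 4.92 in vector cells, 537 and 126 in BCR/ABL cells and 252 and 81.9 in imatinib-treated cells. All groups of Rpl39l overlapped, its log2 change of 2.30 for BCR/ABL against vector had a 95% interval of -0.59 to 5.19 (adjusted p = 0.523), and vector replicate 2 alone was near the floor; without that array the change was 0.81, without vector replicate 1 it was 3.79 and without BCR/ABL replicate 1 it was 1.34. Rpl3l had levels of 5.28 and 5.81, 4.76 and 5.03, and 6.33 and 5.31 in the 3 groups, with log2 changes of -0.65 (SE 0.43, adjusted p = 0.618) and 0.92 (SE 0.43, adjusted p = 0.402) for BCR/ABL against vector and imatinib against BCR/ABL. Its change with imatinib was 0.41 without imatinib replicate 1 and 1.43 without imatinib replicate 2. Rps4l had levels of 7.41 and 9.53 in the vector arrays, further apart than any group means. Rpl39, the core gene beside Rpl39l, had levels of 6.09 and 6.48, 6.89 and 5.72, and 4.85 and 5.85, and a change of -0.95 with imatinib (SE 0.56, adjusted p = 0.519), which lay between -0.37 and -1.54 with 1 array left out.

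The genes most often linked to human Diamond-Blackfan anaemia, of which 12 of 20 were measured and belong to the 49, had median log2 changes of 0.009, -0.005 and -0.001 in the 3 comparisons, with none past the test. Of ribosomal components that the naming rule misses, Fau and Rpsa were measured. Rpsa, also known as a laminin receptor, lay between 13.57 and 13.62 on all arrays, and Fau, made as a fusion with a ubiquitin-like protein, between 13.34 and 13.43.

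Genes whose messages share the TOP motif, translation factors among them, also had values near 0. Of 18 listed, 17 were measured, none passed the test in any comparison, and their median log2 changes were 0.007, 0.028 and 0.02. Eef1a1, the factor that delivers aminoacyl-tRNA, lay between 13.34 and 13.42. Hnrnpa1, an RNA-binding protein, had levels of 12.72 and 12.83 in the vector arrays, 12.63 and 12.38 in the BCR/ABL arrays and 12.88 and 12.93 in imatinib-treated cells. BCR/ABL arrays of Hnrnpa1 were the lowest, with a log2 change of 0.40 with imatinib (SE 0.10, adjusted p = 0.169). Npm1, a nucleolar protein in ribosome assembly, had a change of -0.15 in that comparison (SE 0.06, adjusted p = 0.351).

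Of 19 listed genes that control mTORC1 and cap-dependent translation, 17 were measured and none passed the test in any comparison, with 2, 7 and 4 below an unadjusted p of 0.05 (11.8%, 41.2% and 23.5%, background 12.7%, 17.0% and 16.7%). Their median log2 changes were 0.112, -0.086 and 0.019. Ddit4, which encodes an inhibitor of mTORC1, had levels of 10.47 and 10.86 in vector cells, 12.06 and 10.99 in BCR/ABL cells and 12.91 and 12.69 in imatinib-treated cells. The 3 groups of Ddit4 did not overlap, and its log2 change of imatinib against vector was 2.14 (SE 0.35, adjusted p = 0.135). Pdcd4, an inhibitor of the helicase Eif4a1, had levels of 12.95 and 13.03, 12.83 and 12.75, and 13.09 and 13.21 in the 3 groups, with a change of 0.36 with imatinib (SE 0.07, adjusted p = 0.138). Eif4a1 had a change of -0.28 (SE 0.07, adjusted p = 0.178) and the cap-binding factor Eif4e one of -0.36 (SE 0.10, adjusted p = 0.183) in that comparison.

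The level of the family as a whole was also read in other scalings, since its probe sets make up much of the brightest signal and quantile normalization gives every array the same distribution. In the deposited scaling the median log2 level of the 42 core genes was 13.53 and 13.53 in vector cells, 13.33 and 13.45 in BCR/ABL cells and 13.39 and 13.53 in imatinib-treated cells. BCR/ABL arrays lay below both vector arrays. Imatinib replicate 1 lay between the BCR/ABL arrays, and imatinib replicate 2 lay at the level of the vector arrays. The highest intensity of any probe set followed a like order, with 17954 and 17480.5, 15171.9 and 16950.3, and 15928.3 and 17514.7 in the 3 groups. After quantile normalization the medians were 13.45 and 13.49, 13.41 and 13.47, and 13.46 and 13.48, and the groups overlapped. The 49 genes held 2.55% and 2.51% of the summed intensity of all genes in the vector arrays, 2.34% and 2.44% in the BCR/ABL arrays and 2.30% and 2.53% in imatinib-treated cells.

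**Figure D4:**
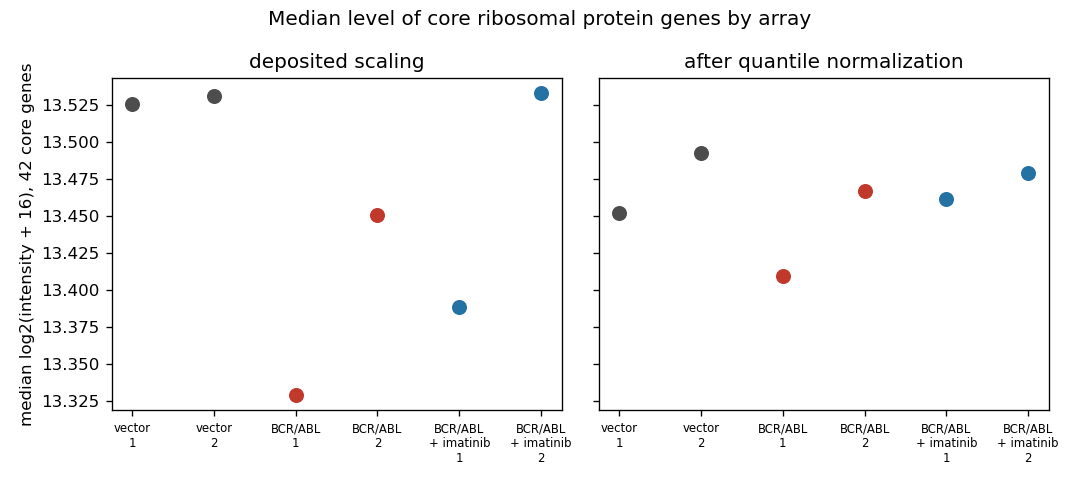
Median log2(intensity + 16) of the 42 core genes on each array, in the deposited scaling (left) and after quantile normalization (right); the axis does not start at 0. The spread between 13.33 and 13.53 on the left shrinks to between 13.41 and 13.49 on the right.

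With the arrays set to equal medians and no quantile normalization, the median change of the 49 genes was 0.119 for BCR/ABL against vector, beside 0.203 for all genes. With the deposited scaling it was -0.093 beside -0.009 for all genes. With equal medians it was -0.303 for imatinib against BCR/ABL, beside -0.272 for all genes, and -0.181 for imatinib against vector, beside -0.089. Under that scaling 3 of the 49 passed the test for imatinib against BCR/ABL. These were Rps19bp1, Rpl41 and Rpl7l1, with log2 changes of -1.06, -0.68 and -0.91 (adjusted p = 0.0255, 0.0404 and 0.0320). Of all 35877 probe sets 1200 passed, 67 with higher and 1133 with lower values.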

How the data were processed

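Total RNA of 6 samples was measured on Affymetrix arrays. The deposited values are linear intensities, made with MAS5 in Affymetrix Expression Console per the submitters' processing notes; each array has a trimmed mean of 500 (2% trimmed at each end). The labels describe a whole-transcript array, while the probe set names belong to an older Affymetrix mouse array read near the 3′ end, whose platform annotation was used. Of 45101 probe sets, 64 controls were left out; 34945 of the rest had 1 symbol, 932 several and 9160 none. All 104 ribosomal protein probe sets matched RefSeq by Entrez number, with 0 symbols changed.

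Values were taken as log2(intensity + 16), which understates changes of dim genes, and quantile normalized, since array medians differed by over 0.1. limma 3.58.1 in R 4.3.3 (lmFit, eBayes with trend) was fitted over all 6 arrays and 35877 named probe sets, with Benjamini-Hochberg adjustment over all of them and a threshold of 0.05. The script was tested on simulated data. Named genes are those past the threshold, up to 6 per direction with the smallest p among genes whose groups do not overlap, and, in every comparison, Rpl11, Rps14, Rps19, Rps6, Rplp0 and the paralogs with their partners. Further probe sets of single genes, the dim core genes and single genes of the lists were chosen after their values were seen. The members and lists were chosen with earlier results of these data known. Only 2 arrays per group limit the precision; no depth exists for arrays. Alternatives changed the scaling, pseudocount, filter, prior, groups fitted, replicate block and arrays left out.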

Additional observations from a re-analysis of the deposited data

How the results depend on the processing

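The 49 ribosomal protein genes had 0 calls in 41 of 42 combinations of comparison and setting; the exception was imatinib against BCR/ABL with array medians, with 3 calls. Array medians gave 298 called probe sets for BCR/ABL against vector (265 higher, 33 lower, beside 21 and 1), 1200 for imatinib against BCR/ABL (67 higher, 1133 lower, beside 0) and 275 for imatinib against vector (201 higher, 74 lower, beside 15 and 1). The median changes of the 49 genes were then 0.119, -0.303 and -0.181, beside 0.203, -0.272 and -0.089 for all genes. With the deposited scaling they were -0.093, 0.025 and -0.065, beside -0.009, 0.057 and 0.027. Probe sets above the 50th percentile of mean level gave 141, 200 and 184 calls (122, 74 and 152 of them higher), a pseudocount of 1 gave 83, 3 and 78, a robust prior gave 42 and 28 for the comparisons with vector, and a fit of only 2 groups gave 0 for imatinib against vector. Leaving out 1 array gave 0 to 38 calls for BCR/ABL against vector and 0 to 54 for imatinib against vector. With replicate numbers as a block there were 22, 0 and 9 calls; same-numbered arrays had deviations correlated at -0.08, 0.16 and 0.15, and the labels give no pairing. The filter, the prior, the fit of only 2 groups and the replicate block cannot alter a log2 change. Nor can leaving out an array of the group not compared. None of the 49 genes had passed the threshold in the main fit, so many single-gene values could change neither direction nor side by losing a call. Of 497 single-gene values, 479 kept direction and side of the threshold, 3 passed it and 15 changed sign. With array medians the latter were, for BCR/ABL against vector, Rps3a1 (0.065) and Rpl27a (0.063); for imatinib against BCR/ABL, Rps4x (-0.24), Rps24 (-0.22), Rps7 (-0.25), Rps3a1 (-0.25) and Rps14 (-0.23); and for imatinib against vector, Rplp0 (-0.059) and Rps16 (-0.11). For BCR/ABL against vector the deposited scaling turned Rpl7a (-0.042) and Rpl39 (-0.18), and a pseudocount of 1 turned Rpl39 (-0.005). Leaving out 1 array gave -0.56 to 0.60 for Rpl39 in BCR/ABL against vector and -0.16 (without vector replicate 2) to 2.83 for Rpl39l in imatinib against vector. The cause of these changes was not tested. Signals near the top of an array and near the floor limit what can be read.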

Other observations

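The 110 probe sets that carry several symbols, with a ribosomal protein gene among them, cannot be given to 1 gene. Their median log2 changes were -0.01 for BCR/ABL against vector, 0.007 for imatinib against BCR/ABL and -0.002 for imatinib against vector, and limma called 0 of them in each comparison, with 4, 7 and 3 at an unadjusted p below 0.05. Over all 35877 probe sets 0.0613%, 0.0% and 0.0446% were called, and 11.5%, 14.6% and 13.8% had an unadjusted p below 0.05. The 104 single-symbol probe sets, without the choice of 1 per gene, also gave 0 calls in each comparison, with 3, 10 and 7 at an unadjusted p below 0.05, against the same background. The smallest adjusted p among those was 0.186, 0.108 and 0.192, and the first and second of these belonged to the same probe set of Rpl41.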
